A study of Cricetulus griseus with 6 samples.

Results

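NRF2, the transcription factor encoded by *Nfe2l2*, was examined together with its regulators and its detoxification targets in CHO-T cells in which *Xbp1* was silenced. The 9 genes were taken by symbol from the 27873 entries of the expression files: 5 regulators (*Nfe2l2*, *Keap1*, *Bach1*, *Mafg* and *Sqstm1*) and 4 targets (*Nqo1*, *Akr1b8*, *Ephx1* and *Osgin1*). All 9 symbols were present, and all 9 were among the 14361 genes tested, those with a mean of at least 0.1 FPKM over the 6 libraries. CHO-T cells are a Chinese hamster ovary line stably expressing mouse T-cadherin from a retroviral cDNA, so both groups carry the transgene. Transfection was with a negative control siRNA or with 1 siRNA sequence against *Xbp1*, and RNA of 3 libraries per group was taken 48 h later. The study's methods describe its results in general as coming from independent experiments, but neither they nor the labels say so of these libraries. The errors and p-values below therefore measure the spread between libraries, which may be technical.

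NRF2 is a short-lived activator. KEAP1 holds it in the cytosol and presents it to a CUL3 ubiquitin ligase, and electrophiles or oxidants that modify KEAP1 let newly made NRF2 reach the nucleus. There it pairs with a small MAF protein (MAFF, MAFG or MAFK) and binds antioxidant response elements, for which the repressor BACH1 competes. The autophagy receptor p62, encoded by *Sqstm1*, binds KEAP1 and is itself an NRF2 target. Much of this control acts on proteins, which RNA-Seq does not measure. The question here was whether the transcripts of the regulators moved with those of the targets.

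The FPKM values (fragments scaled to transcript length and to the mapped fragments of the library) summed to 646651 to 666267 in the control libraries and to 593487 to 600986 in those with *Xbp1* siRNA, so the groups stood apart in this total. Entries above 0 numbered 15109 to 15185 with control siRNA and 15371 to 15545 with *Xbp1* siRNA. The part of these totals in the results was not tested, but values after scaling each library to the same sum are given for some genes. That scaling put the median log2 fold change of all genes tested at 0.135, beside 0.01 on the deposited values. A gene near 0.135 under it therefore stood with the median gene. Steps in low values put the depth of the other libraries at 94.0% to 116% of that of control replicate 1; total reads are not given in the files. The silenced gene *Xbp1* was at 26.8 FPKM with control siRNA and 1.89 FPKM with *Xbp1* siRNA (means, n = 3). As for cell identity, *Vim* (377 FPKM) and *Actb* (2600 FPKM) were abundant in control cells. *Cdh13*, the T-cadherin gene, was at 85.2 FPKM, but it is no marker of the parent line. The paper reports that, apart from the introduced cDNA, T-cadherin expression could not be detected in these cells. How reads of the mouse cDNA were assigned to this entry is not given in the sources used here. All 3 fell after silencing, with log2 fold changes of −0.31 for *Vim* (adjusted p = 0.000738), −0.42 for *Actb* (adjusted p = 0.000167) and −1.37 for *Cdh13* (adjusted p = 7.96e-07, limma). *Ptprc*, *Cd3e* and *Cdh5*, markers of blood cells and endothelium, were listed at 0 in every library, while *Pecam1* averaged 0.175 FPKM and the hepatocyte gene *Alb* 0.967 FPKM in control cells.

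The genes were proposed with earlier results of this comparison known, and *Nqo1* and *Akr1b8* had already been seen to be lower. Their changes are therefore given as a description, with no p-value for any of the 9, as log2 fold changes (*Xbp1* siRNA minus control siRNA) with standard errors from limma on log2(FPKM + 0.1), where the pseudocount shrinks the changes of genes at low FPKM. In bulk RNA, fewer cells expressing a gene and less of its RNA per cell cannot be told apart. In 6 of the 9 genes all 3 libraries with *Xbp1* siRNA lay below all 3 control libraries, as was so for 25.8% of all genes tested, and in 0 of the 9 did they lie above, beside 26.1% of all genes. After scaling each library to the same FPKM sum, a choice made after seeing the data, *Keap1* lay above all controls and the other 8 stood as before. The shares of all genes under that scaling were not computed. As it put the median log2 fold change of all genes at 0.135, nothing is read from the move of *Keap1*. The same fit covered all genes, and in it *Sqstm1*, *Nqo1* and *Akr1b8* lay past the limits used for a call, namely an adjusted p below 0.05 together with a log2 fold change of 1 or more in size. These 3 were all lower; of all genes tested, 2.50% were called lower and 2.69% higher. As the genes were chosen on this contrast, nothing is read from these counts. Nearest to the fold limit were *Sqstm1*, just inside at −1.01, and *Osgin1*, just outside at −0.89.

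**Figure D1:**
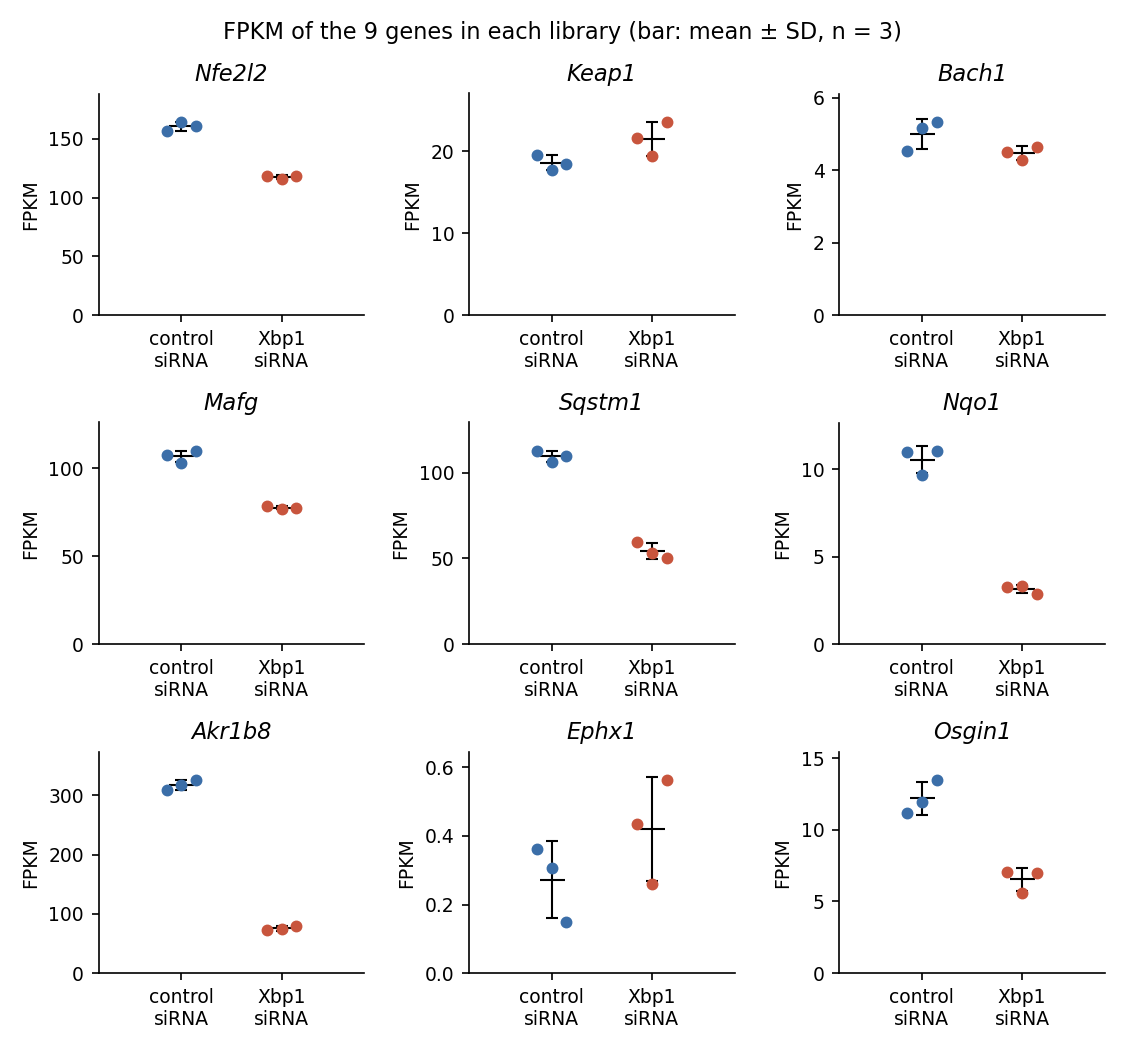
FPKM of the 9 genes (vertical axes, linear, from 0) in each library with control siRNA (blue) or *Xbp1* siRNA (red); black bars are the mean ± SD of 3 libraries. The groups stand apart in *Nfe2l2*, *Mafg*, *Sqstm1*, *Nqo1*, *Akr1b8* and *Osgin1*, and overlap in *Keap1*, *Bach1* and *Ephx1* on these deposited values.

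*Nfe2l2* itself was lower in every library with *Xbp1* siRNA, by a smaller log2 fold change than *Nqo1* or *Akr1b8*. Its 3 control libraries held 156, 164 and 161 FPKM and the 3 with *Xbp1* siRNA held 119, 116 and 118 FPKM. The groups were tight and did not overlap. The mean with *Xbp1* siRNA was 73.1% of control, a log2 fold change of −0.45 (SE 0.032). *Nfe2l2* was an abundant transcript in control cells, above 96.2% of the entries detected there.

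*Mafg*, which encodes the DNA-binding partner, changed by a similar amount. It was at 108, 103 and 109 FPKM in the control libraries and at 78.4, 76.6 and 77.4 FPKM after silencing. All libraries with *Xbp1* siRNA were again below all controls, with a log2 fold change of −0.46 (SE 0.036). The other small MAF genes were not among the 9 and are given with their p, although their list too was drawn up with earlier results of these data known. *Mafk* fell, from 36.3 to 22.1 FPKM (log2 fold change −0.72, adjusted p = 5.28e-05, limma), and so did *Maff*, from 32.2 to 24.6 FPKM (log2 fold change −0.39, adjusted p = 0.0136, limma), although *Maff* no longer passed after scaling to the same FPKM sum (−0.25, adjusted p = 0.0668). *Mafg* supplied the larger part of the small MAF transcripts in both states, 60.9% ± 0.383 of the summed FPKM in control cells and 62.4% ± 0.843 after silencing (SD, n = 3 each).

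Because FPKM is scaled to gene length, transcripts can be set against each other within a library, where the scaling between libraries cancels. The small MAF genes together held 113, 102 and 112 FPKM per 100 FPKM of *Nfe2l2* in the control libraries. After silencing the ratios were 105, 106 and 107. These groups overlapped, with means of 109 and 106. *Nfe2l1*, which encodes the related factor NRF1 and is activated by proteasome loss rather than through KEAP1, was more abundant than *Nfe2l2* in control cells at 203 FPKM. It fell to 159 FPKM (log2 fold change −0.35, adjusted p = 0.000181, limma). Of the remaining relatives, *Nfe2l3* was at 0.190 FPKM, *Bach2* was listed at 0 in the controls and *Nfe2* was listed at 0 in every library.

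**Figure D2:**
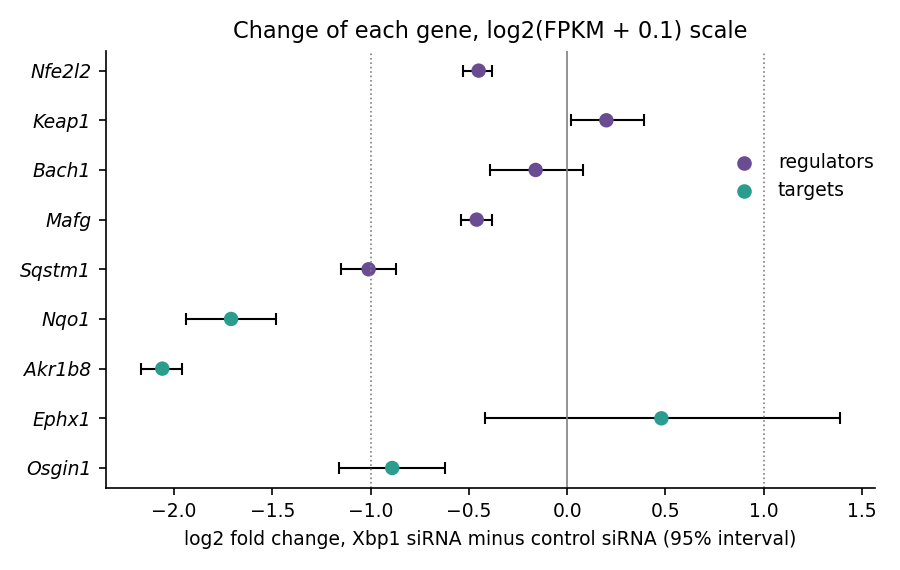
Log2 fold change of each of the 9 genes (horizontal axis, *Xbp1* siRNA minus control siRNA, log2(FPKM + 0.1) scale) with limma's 95% interval, not adjusted for the number of genes; dotted lines mark the fold limit of 1 in either direction. *Keap1* and *Ephx1* lie to the right of 0, *Bach1* lies at −0.16 with an interval that holds 0, and *Akr1b8* is farthest left at −2.06.

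For both negative regulators the groups overlapped in the deposited FPKM values, but for *Keap1* not after scaling to the same FPKM sum. *Keap1*, the adaptor that targets NRF2 for ubiquitination, had 19.6, 17.8 and 18.5 FPKM in the control libraries and 21.6, 19.4 and 23.5 FPKM after silencing. Replicate 2 of the *Xbp1* siRNA group lay within the control range. The log2 fold change was 0.20, with an interval from 0.02 to 0.39 that is not adjusted for the number of genes. Scaled to the same sum, *Keap1* was at 18.4, 17.01 and 17.9 in the control libraries and at 22.7, 20.5 and 24.5 after silencing, all above the controls. Its log2 fold change was then 0.34, beside a median of 0.135 over all genes under that scaling. *Bach1*, the competing repressor, had 4.54, 5.16 and 5.32 FPKM in control cells and 4.50, 4.29 and 4.65 FPKM after silencing. Here control replicate 1 lay among the libraries with *Xbp1* siRNA. Its log2 fold change was −0.16, with an interval from −0.39 to 0.08.

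Against *Nfe2l2*, both repressor transcripts were higher after silencing. *Keap1* held 12.5, 10.8 and 11.5 FPKM per 100 FPKM of *Nfe2l2* in the control libraries and 18.2, 16.8 and 19.9 after silencing. *Bach1* held 2.90, 3.15 and 3.30 per 100 in control cells and 3.8, 3.71 and 3.94 after silencing. In neither ratio did the groups overlap. *Nfe2l2*, the divisor of both ratios, was itself lower after silencing, so the ratios do not show more *Keap1* or *Bach1* RNA.

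**Figure D3:**
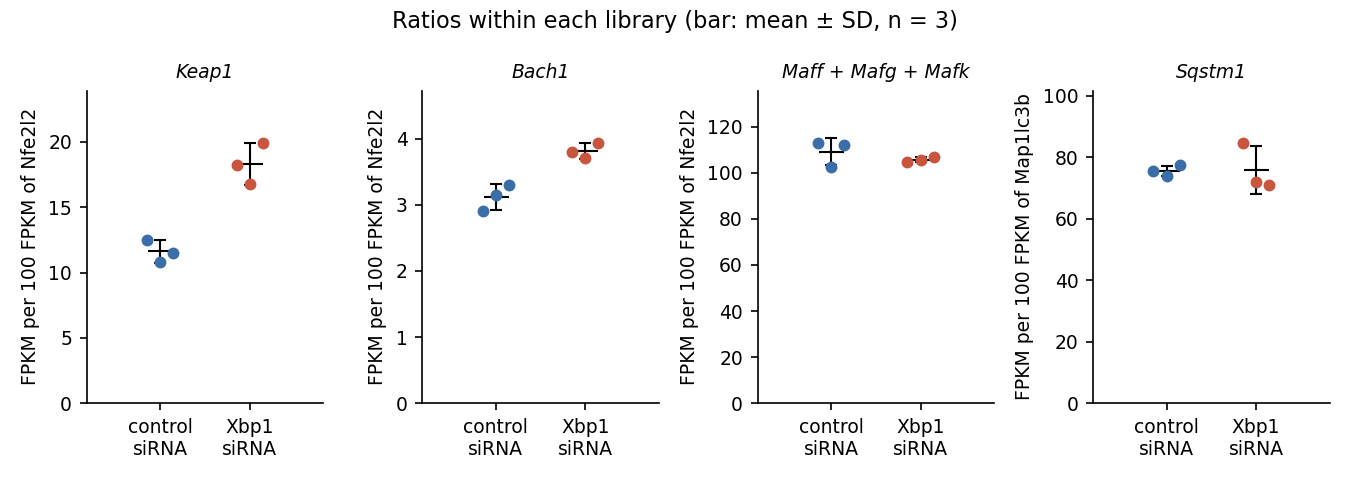
Ratios of FPKM within each library (vertical axes, linear, from 0) with control siRNA (blue) or *Xbp1* siRNA (red); black bars are the mean ± SD of 3 libraries. *Keap1* and *Bach1* per 100 FPKM of *Nfe2l2* were higher in every library with *Xbp1* siRNA, whereas the summed small MAF genes per 100 FPKM of *Nfe2l2* and *Sqstm1* per 100 FPKM of *Map1lc3b* overlapped between groups.

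The other genes that lead to NRF2 degradation were mixed. A list of 9 genes was tested: 1 rose, 3 fell and 5 did not pass an adjusted p under 0.05, against 20.2% higher and 20.2% lower among all genes tested. Its median log2 fold change was −0.06, beside 0.01 over all genes. *Cul3*, the scaffold of the ligase that KEAP1 serves, had 38.6 FPKM in control cells and 38.7 FPKM after silencing (log2 fold change 0.00, adjusted p = 0.977, limma), with an unadjusted 95% interval from −0.10 to 0.10. Scaled to the same FPKM sum it passed, at 0.14 (adjusted p = 0.0368, limma), where the median of all genes was 0.135. *Gsk3b* and *Gsk3a*, kinases that mark NRF2 for the alternative βTrCP ligase, had log2 fold changes of −0.62 (adjusted p = 0.00028) and −0.45 (adjusted p = 0.000513, limma). *Skp1*, a subunit of that ligase, also fell, by 0.45 on the log2 scale (adjusted p = 0.00105, limma). The βTrCP genes *Btrc* and *Fbxw11* did not pass, at 0.18 (adjusted p = 0.142) and −0.06 (adjusted p = 0.3, limma). Nor did *Cul1*, at −0.08 (adjusted p = 0.108, limma). *Btrc* passed upward after scaling to the same FPKM sum (0.32, adjusted p = 0.0278, limma). On the deposited values *Syvn1*, which encodes the ER membrane ubiquitin ligase HRD1, a known NRF2 ligase, alone rose, from 25.9 to 37.1 FPKM (log2 fold change 0.51, adjusted p = 0.000591, limma).

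Among 7 genes for other proteins that bind KEAP1 or NRF2, 2 rose, 2 fell and 3 did not pass, near the 20.2% of all genes that passed in each direction. *Dpp3*, a peptidase that can occupy KEAP1, rose from 50.4 to 73.4 FPKM (log2 fold change 0.54, adjusted p = 0.000168, limma), and *Pgam5* rose by 0.15 (adjusted p = 0.0308, limma). *Cdkn1a*, which encodes the cell cycle inhibitor p21, was past the fold limit, which no other gene of this list passed, with 63.2 FPKM in control cells and 27.9 FPKM after silencing (log2 fold change −1.18, adjusted p = 4.75e-06, limma). *Mcm3*, a replication factor, fell by 0.28 on the log2 scale (adjusted p = 0.00312, limma), but did not pass after scaling to the same sum (−0.14, adjusted p = 0.0574). Of 7 coactivators and corepressors tested, 2 rose and 2 fell, again near the 20.2% each way over all genes. *Ep300*, an acetyltransferase that acts on NRF2, fell by 0.34 on the log2 scale (adjusted p = 0.00232), while the chromatin genes *Hdac3* and *Smarca4* had 0.25 (adjusted p = 0.00367) and 0.23 (adjusted p = 0.00744, limma).

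*Sqstm1* was the regulator with the largest change among the 5. Its control libraries held 113, 106 and 110 FPKM and those with *Xbp1* siRNA 59.4, 53.3 and 50.6 FPKM. The groups were far apart, and the mean after silencing was 49.7% of control, a log2 fold change of −1.01 (SE 0.061). The value sits on the fold limit, and it was −0.99 without control replicate 1, −1.0 without *Xbp1* siRNA replicate 2 and −0.96 without *Xbp1* siRNA replicate 3. After scaling to the same FPKM sum it was −0.88.

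Several genes for autophagy proteins that work beside p62 fell. Of 7 tested, 5 fell, 0 rose and 2 did not pass an adjusted p under 0.05 in limma, with a median log2 fold change of −0.27, where 20.2% of all genes fell and 20.2% rose. *Map1lc3b* and *Gabarapl1*, whose products coat the autophagosome and are bound by p62, had 145 and 84.2 FPKM in control cells and 71.8 and 40.9 FPKM after silencing. Their log2 fold changes were −1.01 (adjusted p = 2.83e-06) and −1.04 (adjusted p = 7.11e-06, limma). *Nbr1*, the receptor most like p62, fell from 90.7 to 50.8 FPKM (log2 fold change −0.84, adjusted p = 6.04e-06, limma), and *Gabarapl2* and *Tax1bp1* fell by 0.27 and 0.21 on the log2 scale. Scaled to the same sum, *Gabarapl2* was at −0.13 and *Tax1bp1* no longer passed, at −0.07 (adjusted p = 0.257, limma), as was so after quantile normalization at −0.13 (adjusted p = 0.0595). *Optn* and *Calcoco2*, receptors for damaged mitochondria and bacteria, had log2 fold changes of 0.02 and 0.01 with adjusted p of 0.812 and 0.833 (limma). *Calcoco2* passed after scaling to the same sum (0.15, adjusted p = 0.0435), where the median of all genes was 0.135. *Sqstm1* stood at 75.5, 74.0 and 77.4 FPKM per 100 FPKM of *Map1lc3b* in the control libraries and at 84.8, 71.9 and 71.0 after silencing. The groups overlapped, with means of 75.6 and 75.9. The call of *Map1lc3b* was lost without control replicate 1 (−0.99) and without *Xbp1* siRNA replicate 1 (−1.0). Both it and *Gabarapl1* lost the call after quantile normalization (−0.93 and −0.99) and after scaling to the same FPKM sum (−0.88 and −0.91).

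*Akr1b8* and *Nqo1*, both targets, had the largest decreases of the 9 genes. *Akr1b8*, an aldo-keto reductase that reduces reactive aldehydes, had 309, 317 and 325 FPKM in the control libraries. After silencing it had 72.6, 74.5 and 80.2 FPKM. The groups were far apart, with a mean after silencing of 23.9% of control and a log2 fold change of −2.06 (SE 0.044). Of all genes tested, 0.543% had a lower log2 fold change. *Akr1b8* belongs to a family of close copies, and how its reads were divided among them is not given in the sources used here. Its relative *Akr1b1*, chosen after its values were seen, had 91.7 FPKM in control cells and 88.4 FPKM after silencing, so that *Akr1b8* went from 3.45 times *Akr1b1* to 0.858 times.

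*Nqo1*, the quinone reductase most often used as a readout of NRF2, was expressed at a modest level in these cells. It had 11.0, 9.67 and 11.0 FPKM in the control libraries and 3.26, 3.33 and 2.88 FPKM after silencing. The groups did not overlap, and the mean after silencing was 29.9% of control (log2 fold change −1.71, SE 0.10). *Osgin1*, an oxidative stress response gene with growth inhibitory activity, had a similar control level, with 11.2, 11.9 and 13.4 FPKM. It had 7.02, 5.62 and 7.0 FPKM after silencing, 53.7% of control. The log2 fold change of *Osgin1* was −0.89 (SE 0.11), and its values were also separate between the groups.

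*Ephx1*, the microsomal epoxide hydrolase, was barely expressed. Its control libraries held 0.362, 0.308 and 0.148 FPKM and those with *Xbp1* siRNA 0.436, 0.260 and 0.562 FPKM. The groups overlapped and the log2 fold change of 0.48 had an interval from −0.42 to 1.39, so a change in either direction was not detectable at this depth. In the control libraries the values, corrected for relative depth, stood in the proportion 5.0 to 4.0 to 2.0, as few reads would give. After silencing they were 6.17, 3.53 and 9.02 on the same scale. The first and the second of these are not within 0.03 of a whole number, so read numbers were not assigned.

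Per library, the regulators can be set beside the mean log2(FPKM + 0.1) of the targets. Over all 4 targets that mean was 3.53, 3.47 and 3.39 with control siRNA and 2.47, 2.26 and 2.53 with *Xbp1* siRNA, a difference of −1.04. Without the barely expressed *Ephx1*, a choice made after the values were seen that leaves the 3 lower targets, the difference was −1.55. *Nfe2l2* and *Mafg* had differences in the same direction, of −0.45 and −0.46, and so had *Sqstm1*, with −1.01. *Keap1* had a difference of 0.20 and *Bach1* one of −0.16, with groups that overlapped in the deposited values.

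Relative to *Nfe2l2*, the mean of all 4 targets was −3.76, −3.89 and −3.94 in the control libraries and −4.42, −4.60 and −4.35 after silencing, a difference of −0.59 with no overlap between the groups. The groups were also apart relative to *Mafg* (−0.58), *Keap1* (−1.25) and *Bach1* (−0.89). Relative to *Sqstm1* they overlapped, with a difference of −0.03. Without *Ephx1* the differences were −1.10 against *Nfe2l2*, −1.09 against *Mafg*, −1.76 against *Keap1*, −1.40 against *Bach1* and −0.54 against *Sqstm1*, and none of these groups overlapped. Within a condition the libraries hold too few points for a correlation between regulators and targets, and across both conditions they form separate clusters, so none is given.

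**Figure D4:**
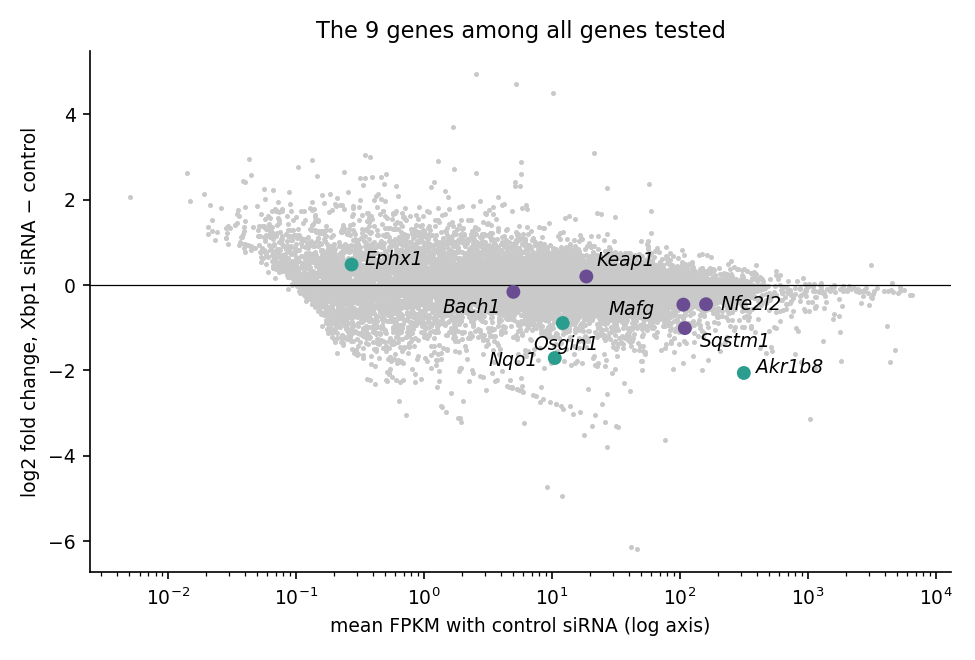
Log2 fold change (vertical axis, *Xbp1* siRNA minus control siRNA) against mean FPKM with control siRNA (horizontal log axis) for genes tested with a control value above 0 (grey), with the regulators (purple) and targets (green) named. *Akr1b8* and *Nqo1* lie at the lower edge of the cloud at their levels, and *Ephx1* lies in the sparse, scattered range under 1 FPKM.

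Across the whole table, abundant genes had slightly lower log2 fold changes. The median log2 fold change was 0.01 over all genes tested, −0.05 over the 3785 genes that averaged 30 FPKM or more and −0.09 over the 1063 genes that averaged 100 or more. The 9 genes had a median of −0.46. Scaling each library to the same FPKM sum moved the median of all genes to 0.135. Under that scaling *Bach1* stood at −0.02.

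Other enzymes and transporters of detoxification were found on both sides. Of a list of 34 genes, 19 symbols were found in the files and 17 rows were tested. Of these, 5 rose, 5 fell and 7 did not pass, beside 20.2% of all genes in each direction, and the median log2 fold change was −0.02. *Gstp1*, an abundant glutathione transferase, fell from 817 to 407 FPKM (log2 fold change −1.01, adjusted p = 2.38e-06, limma). Its value was −0.99 without control replicate 1 or without *Xbp1* siRNA replicate 2, −0.76 after quantile normalization and −0.87 after scaling to the same FPKM sum, each short of the fold limit. *Ptgr1*, a reductase of reactive enals and prostaglandins, fell from 107 to 57.7 FPKM (log2 fold change −0.89, adjusted p = 6.68e-06, limma). *Gsto1* stands on 2 rows, with log2 fold changes of −0.79 (adjusted p = 0.000587) and −0.04 (adjusted p = 0.77, limma), so this gene is uncertain.

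The genes of that list that rose were *Abcc3*, *Abcc4*, *Aldh7a1*, *Aldh9a1* and *Mgst3*. *Abcc3* and *Abcc4*, which export conjugates, had log2 fold changes of 0.76 (adjusted p = 0.00281) and 0.58 (adjusted p = 0.000347, limma). Of their relatives, *Abcc1* fell by 0.16 on the log2 scale (adjusted p = 0.0284, limma) but did not pass after scaling to the same sum (−0.02, adjusted p = 0.776) or quantile normalization (−0.12, adjusted p = 0.0795), while *Abcc2* and *Abcc5* did not pass, at −0.02 and 0.02. *Aldh9a1* rose from 9.92 to 16.4 FPKM and *Aldh7a1* from 11.95 to 18.9 FPKM, with log2 fold changes of 0.72 (adjusted p = 0.000293) and 0.66 (adjusted p = 0.000266, limma). *Akr1a1*, an aldo-keto reductase as abundant as 553 FPKM in control cells, stood at −0.02 on the log2 scale, with an unadjusted 95% interval from −0.11 to 0.06 (adjusted p = 0.659, limma). It passed upward after quantile normalization (0.26, adjusted p = 0.000517). It also passed after scaling to the same sum (0.11, adjusted p = 0.0182), where the median of all genes was 0.135. Just short of passing were *Cbr3*, at 0.30 (adjusted p = 0.0539), and *Por*, at −0.19 (adjusted p = 0.0501, limma). Scaled to the same sum, *Cbr3* passed at 0.44 (adjusted p = 0.0123) and *Por* did not, at −0.06 (adjusted p = 0.502, limma). *Mgst2* and *Abcg2* were listed at 0 in every library.

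**Figure D5:**
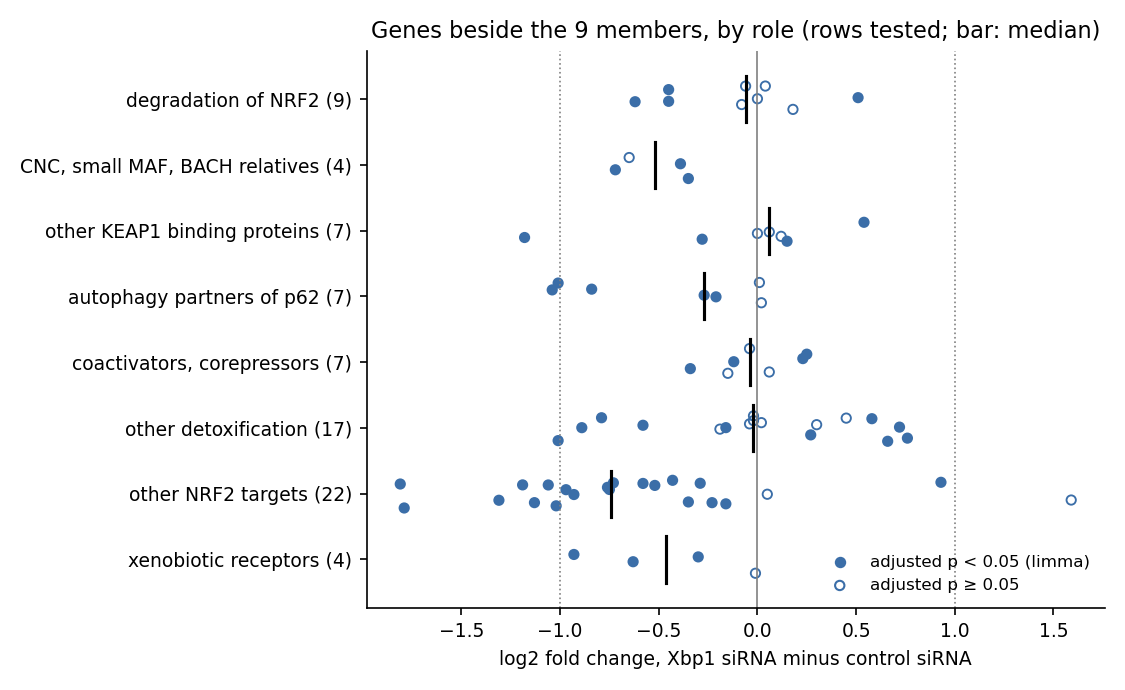
Log2 fold change (horizontal axis, *Xbp1* siRNA minus control siRNA) of genes beside the 9, one point for each row tested, grouped by role with the number of rows in parentheses; filled points have an adjusted p under 0.05 (limma) and black bars are medians. Of 22 rows of other NRF2 targets 19 are filled and left of 0, with a median of −0.74, while other detoxification genes lie on both sides, with a median of −0.02. This contrast depends on how genes were divided between these lists.

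Targets of NRF2 in glutathione, thioredoxin, haem and NADPH metabolism were mostly lower. This list overlaps results already known from these data and is no independent evidence of its direction. Of 22 rows tested, 19 fell, 1 rose and 2 did not pass, where 20.2% of all genes fell and 20.2% rose. Of the 22 rows, 7 were called lower, past the fold limit too, beside 2.50% of all genes tested. Among these 7 were *Gclm*, the modifier subunit of the enzyme that starts glutathione synthesis (155.5 to 70.8 FPKM, log2 fold change −1.13, adjusted p = 1.59e-06, limma), and *Slc7a11*, the cystine transporter (31.3 to 14.9 FPKM, log2 fold change −1.06, adjusted p = 0.000122, limma). *Pgd* of the pentose phosphate pathway fell from 139.8 to 61.1 FPKM (log2 fold change −1.19, adjusted p = 3.87e-06, limma), and *Prdx1*, a peroxidase, from 1327 to 537 FPKM (log2 fold change −1.31, adjusted p = 3.86e-06, limma). *Slc7a11* was at −0.97 without control replicate 3 and at −0.93 after scaling to the same FPKM sum, which also took *Gclm* just under the limit (−1.0). The remaining 3 past the limit were *Fth1* (ferritin heavy chain) at −1.81, *Hmox1* (haem oxygenase) at −1.79 and *Gss* (glutathione synthetase) at −1.02. *Gss* fell short of the limit after quantile normalization (−0.79) and after scaling to the same FPKM sum (−0.88). *Srxn1* and *Blvrb* fell by 0.93 and 0.76 on the log2 scale.

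The exceptions in this list were few. Such counts depend on how genes were divided between it and the list of other detoxification genes, where 5 rose and 5 fell. Another division was not tried. *Idh1*, a cytosolic source of NADPH, rose from 5.09 to 9.73 FPKM (log2 fold change 0.93, adjusted p = 0.000565, limma). *Me1*, the malic enzyme, had 65.6 and 67.9 FPKM (log2 fold change 0.05, adjusted p = 0.426, limma). It passed after scaling to the same sum (0.18, adjusted p = 0.00924), where the median of all genes was 0.135. The entry *Ftl* had only 0.101 and 0.585 FPKM on average and did not pass (adjusted p = 0.0984, limma); without *Xbp1* siRNA replicate 2 it was called higher, at 2.16. *Txn*, thioredoxin, fell by 0.29 on the log2 scale, and this turned to 0.03 after quantile normalization (adjusted p = 0.606, limma). *Gsr* and *Tkt*, counted among those that fell, were at −0.23 (adjusted p = 0.0364) and −0.16 (adjusted p = 0.0238, limma). Neither passed after quantile normalization (−0.18, adjusted p = 0.0771, and −0.02, adjusted p = 0.704). Nor did they after scaling to the same sum (−0.09, adjusted p = 0.351, and −0.02, adjusted p = 0.697).

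The genes whose values over the 6 libraries were most like those of *Nfe2l2* were looked for among 9402 named genes with a mean of at least 1 FPKM. Likeness was the root mean square difference between log2(FPKM + 0.1) values centred on each gene's mean. The nearest were *Setd7* (0.0157), *Nme3* (0.0179), *Anapc7* (0.0183), *Ubfd1* (0.0198) and *Me2* (0.0234), with log2 fold changes from −0.46 to −0.43. For *Keap1* they were *Pla2g4d* (0.029), *Tmem201* (0.0363), *Alg1* (0.0367), *Yrdc* (0.0396) and *B4gat1* (0.0408). For the mean of all 4 targets they were *Ppp1r15b* (0.0527), *Tnfsf9* (0.0569), *Gabarapl1* (0.058), *Adal* (0.0606) and *Fdx1* (0.0679). These depend on the scarce *Ephx1*: for the mean without it, added after the values were seen, the nearest were *Trmt10a* (0.0564), *Dr1* (0.0622), *Slc30a4* (0.0625), *Egr1* (0.0629) and *Rps2* (0.0657), and 0 genes were shared.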

How the data were processed

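Stranded mRNA libraries were sequenced on a HiSeq instrument, and the authors deposited 1 file of FPKM values for each of the 6 libraries. The submitters' processing notes name HISAT2 2.1.0 and Cuffdiff 2.2.1. The genome build and annotation are not given in the sources used here, so genes are named by symbol without coordinates. No promoter or genome sequence of this species was at hand, so no sequences were used. A planned count of antioxidant response elements in promoters was for that reason not run.

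FPKM values are not counts, so limma 3.58.1 (R 4.3.3; lmFit, eBayes with trend) was applied to log2(FPKM + 0.1) of the 14361 genes that averaged 0.1 FPKM or more, with Benjamini-Hochberg adjustment over all of them. A call needed an adjusted p below 0.05 together with a log2 fold change of 1 or more in size. "Rose" and "fell" mark genes with an adjusted p under 0.05. The procedure was tested on simulated data. Relative depth was read from steps in low values. Alternatives were other pseudocounts, filters and scalings, eBayes without trend, no fold limit, the replicate number as a block and leaving out each library.

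The members and lists were chosen with earlier results of these data known, and the ratios within a library after values were seen. Beside the 9 genes, those named were list genes that were called, up to 4 others per list with an adjusted p under 0.05 and the largest changes, and the 5 nearest patterns. Genes that did not pass, and a few that did, were added after their values were seen. Some list genes that the rule would name are not reported here.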

Additional observations from a re-analysis of the deposited data

How the results depend on the processing

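Of all genes tested, 386 passed both limits upward and 359 downward. Adding 1 FPKM before the logarithm gave 114 higher and 205 lower, a filter at a mean of 1 FPKM gave 242 higher, and leaving out the fold limit gave 2898 higher and 2904 lower. Without each library in turn there were 329 to 380 higher and 346 to 369 lower. Scaling to the same FPKM sum, added after seeing the data, made 68.8% of calls higher, against 51.8% in the report and 35.7% with a pseudocount of 1.

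Of the 9 genes, 3 were called lower in the report, 6 without a fold limit and 2 to 3 without each library in turn. *Sqstm1* was the gene lost in every such case, and it was also lost with a pseudocount of 1 (−1.0), after quantile normalization (−0.95) and after scaling to the same sum (−0.88). *Keap1* ranged from 0.14 to 0.34 and *Bach1* from −0.22 to −0.02 over the alternatives.

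Of 77 rows tested for other pathway genes, 11 were called lower and 0 higher, beside 2.50% and 2.69% of all genes. Quantile normalization left 7 lower, scaling to the same sum 5 and leaving out a library 10 to 12, while no fold limit gave 42 lower and 11 higher, beside 20.2% of all genes each way. At an adjusted p under 0.05 alone, scaling to the same sum ended 7 of these and added 7, and quantile normalization ended 6 and added 1. Leaving out a library gave 0 to 1 higher, and scaling to the same sum gave 1 (*Idh1*). Of 319 values for 20 single genes under the alternatives, 295 kept their call and 0 changed direction.

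A replicate block in the model gave 363 higher and 353 lower calls, with 3 of the 9 genes lower. Of the other pathway genes 1 was called higher under the block, the entry *Ftl*. The numbers did not pair the libraries: deviations of same-numbered libraries correlated at −0.0289, −0.0265 and −0.0124 across genes, which are not independent replicates.

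Total reads are not given, so genes under 1 FPKM, such as *Ephx1*, carry no counting interval. The promoter search was not run.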

Other observations

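Receptors that drive other detoxification programmes were also listed. Of 4 tested genes in a list of xenobiotic and steroid receptors and their partners, 3 fell, 0 rose and 1 did not pass an adjusted p under 0.05, where 20.2% of all genes fell and 20.2% rose. *Ahr*, the aryl hydrocarbon receptor, fell from 66.2 to 42.6 FPKM (log2 fold change −0.63, adjusted p = 3.9e-05, limma), and its partner *Arnt* from 42.7 to 34.8 FPKM (log2 fold change −0.30, adjusted p = 0.00191, limma). *Nr3c1*, the glucocorticoid receptor, fell from 10.0 to 5.22 FPKM (log2 fold change −0.93, adjusted p = 0.000459, limma). *Hnf4a* stood at −0.01 on the log2 scale (adjusted p = 0.975, limma). *Nr1i3*, the receptor CAR, was listed at 0 in every library, and *Nr1i2* averaged 0.153 FPKM in control cells and was not tested.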
